A study of Mus musculus with 1 sample.

Results

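The membrane of a red cell is carried by a protein skeleton, and 8 genes that encode parts of this structure or blood group proteins set in it were followed here: Slc4a1, Ank1, Epb42, Sptb, Epb41, Rhag, Rhd and Kel. They were chosen by symbol, and each symbol matched 1 of the 32285 genes counted. They were measured in 1 single-cell RNA-seq library, replicate 1 of the control group, made from lineage-negative, cKit-positive cells from the marrow of femora and tibiae of C57BL/6 mice. The labels give donor cells of genotype CD45.2(+) Brd9fl/fl and a recipient of genotype CD45.1(+) CD45.2(-), that is, floxed Brd9 with no Cre deletion. The series text, however, names primary mice, and the study's methods for the single-cell library name no transplant. It could not be settled which is right. The mice had received 3 doses of 20 mg/kg pIpC, an inducer of interferon, and cells were taken 8 weeks later. A span of 4 weeks before pIpC is also recorded for the sample. The number of mice behind the library is not given in the sources used here, and cells with Brd9 deleted were not analysed here. The antibodies of the lineage sort included Ter119, which marks late erythroblasts and red cells, so the sort removes the cells in which the membrane is completed.

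In a mature red cell, spectrin tetramers form a net under the lipid bilayer. The net is held at ankyrin complexes, where ankyrin joins spectrin to the anion exchanger band 3, and at junctional complexes, where short actin filaments meet the spectrin ends. Loss of ankyrin, band 3, spectrin or the protein encoded by Epb42 makes red cells spherical and fragile, a disease known as hereditary spherocytosis, and loss of the Epb41 product makes them elliptical. Klf1 encodes a transcription factor needed for the erythroid programme, and Klf1 transcripts were used to find the cells entering this lineage.

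A cell was called Klf1-positive when it held 2 or more Klf1 unique molecular identifiers (UMIs, each counting 1 captured transcript once). Of 7645 cells kept, 1360 were Klf1-positive (17.8%, interval 16.9 to 18.7). They had a median of 31982 UMIs per cell, against 16976 in the other 6285 cells. Levels are given as summed UMIs per 1000000 UMIs of the group (CPM). Counts made at transcript ends do not scale with transcript length, so each gene is compared with itself across cells and the genes' levels are not ranked against each other. As the library has no replicate, nothing was tested. All intervals are exact 95% intervals for counting error alone. UMIs limit amplification copies, but differences between mice, sorts or libraries are not covered.

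The label of the cells was checked against their markers. Hba-a1, an alpha globin gene, was at 896 CPM in Klf1-positive cells and 14.0 CPM in the others. Gata1, encoding a master regulator of erythroid and megakaryocytic genes, was at 115 against 12.2 CPM, and Epor, the erythropoietin receptor gene, at 88.4 against 5.20 CPM. Clusters built without the 8 genes placed 1090 of the Klf1-positive cells (80.1%) in an erythroid-like class. Klf1 itself was not left out of the clustering and is among the markers that name this class. This share is therefore not independent of the rule that chose the cells. Of the remaining 270 cells, 110 were in an unnamed cluster led by Ighg2b and Rpgrip1, of whose cells 32.3% were called doublets, and 74 in an unnamed cluster led by St8sia6 and Apoe.

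Promoter sequences are shown for 4 of the genes because they differ in the words they hold for the erythroid factors GATA1 and KLF1. RefSeq promoters on build GRCm38.p6 were found for 6 of the 8 genes, Slc4a1 and Ank1 having none in the table used. The 250 bases before the annotated start were searched on both strands for the GATA words AGATAA or TGATAA, also AGATAG or TGATAG, and for the KLF words CCACACCC or CCACGCCC, also CCCCACCC or CCCCGCCC. The windows are chr17:40810899-40811148 on the plus strand for Rhag, chr4:134864286-134864535 on the plus strand for Rhd, chr6:41704326-41704575 on the minus strand for Kel and chr12:76710548-76710797 on the minus strand for Sptb. Each is written 5′ to 3′ along its gene, and capitals mark a GATA word in the first 3 sequences and a KLF word in Sptb, as its reverse complement where the word lies on the opposite strand. No match overlapped another in these 4 windows.
Rhag: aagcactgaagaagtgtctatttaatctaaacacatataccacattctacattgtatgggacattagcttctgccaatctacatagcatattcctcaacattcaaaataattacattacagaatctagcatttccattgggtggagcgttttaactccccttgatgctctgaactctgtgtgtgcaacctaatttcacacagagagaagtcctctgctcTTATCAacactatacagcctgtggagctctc
Rhd: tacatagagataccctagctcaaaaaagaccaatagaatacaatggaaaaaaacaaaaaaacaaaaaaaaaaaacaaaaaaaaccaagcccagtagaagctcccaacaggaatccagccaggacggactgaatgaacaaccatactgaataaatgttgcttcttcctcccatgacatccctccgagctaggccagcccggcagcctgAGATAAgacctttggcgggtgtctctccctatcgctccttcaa
Kel: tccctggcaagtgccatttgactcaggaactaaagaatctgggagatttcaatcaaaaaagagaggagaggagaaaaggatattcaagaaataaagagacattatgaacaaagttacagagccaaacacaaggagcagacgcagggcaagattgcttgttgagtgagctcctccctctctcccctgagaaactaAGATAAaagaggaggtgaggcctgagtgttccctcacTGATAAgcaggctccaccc
Sptb: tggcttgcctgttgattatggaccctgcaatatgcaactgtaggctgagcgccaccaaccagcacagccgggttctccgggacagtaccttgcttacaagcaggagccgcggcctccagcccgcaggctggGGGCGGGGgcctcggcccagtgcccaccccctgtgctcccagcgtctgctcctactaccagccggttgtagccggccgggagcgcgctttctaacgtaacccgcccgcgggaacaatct

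The GATA word of Rhd begins 43 bases before the start, that of Rhag 31 bases before it on the opposite strand, and those of Kel 56 and 19 bases before it. These starts are those of RefSeq, and the last 23 bases of the Rhag window and the last 14 of the Kel window lie inside the gene models of GENCODE M21, which start earlier. Sptb held no GATA word and 1 KLF word, 119 bases before its start. The most upstream of 3 windows of Epb41 held both kinds of word, with 8 of its bases inside the gene model, and the other 2 lay wholly inside it. The window of Epb42 held a GATA word, but 195 of its 250 bases lie inside the gene model, so it is mostly not upstream sequence by that annotation. Counting every window, 5 of 8 held a GATA word and 2 held a KLF word, while of 32851 RefSeq promoter windows of this length 26.5% held a GATA word, 27.4% a KLF word and 4.31% both. A match of letters is a description of the sequence and does not show a bound site.

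Transcripts of 7 of the 8 genes were far more abundant in Klf1-positive cells than in other cells, by 33.7-fold to 72.8-fold, while Epb41 differed by 1.85-fold. At least 4-fold higher levels were found for 7 of 8 members, against 2.86% of the 13479 genes with 50 or more UMIs. With at least 2-fold as the limit the members were again 7, against 7.78% of the genes. The median ratio was 61.4 over the members and 0.863 over all these genes. The size of the ratios depends on the cells compared: with no cell filter those of the 7 genes lay between 14.3 for Kel and 35.5 for Slc4a1, and with 2 Klf1 UMIs required after thinning to 5000 UMIs between 6.47 for Kel and 10.7 for Slc4a1.

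Of the ankyrin complex, Slc4a1 encodes band 3, the chloride and bicarbonate exchanger, and lies on the minus strand of chromosome 11 (chr11:102348824-102366203, GRCm38). It had 2163 UMIs in Klf1-positive cells, or 51.5 CPM, and 82 UMIs, or 0.747 CPM, in other cells, a ratio of 69.0 (55.3 to 87.1). Ank1, the gene of erythrocyte ankyrin on chromosome 8 (chr8:22974844-23150497, plus strand), was at 96.5 against 1.49 CPM, a ratio of 64.6 (55.3 to 76.0). Reads of Ank1 share their strand with the overlapping Mir486 and Gm15815, so they may not be told apart from these. The same holds for Kel with Gm37527 and Epb41 with Gm27445. Epb42, on the minus strand of chromosome 2 (chr2:121017891-121037072), encodes a protein that binds band 3 and ankyrin. It was at 25.2 against 0.501 CPM, a ratio of 50.3 (38.4 to 67.3).

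The spectrin net is represented by Sptb, the erythroid beta spectrin gene (chr12:76580488-76710547, minus strand). Its level was 78.9 against 1.36 CPM, a ratio of 58.2 (49.4 to 69.0). The junctional member Epb41 (chr4:131923413-132075321, minus strand) encodes the protein that strengthens the binding of spectrin to actin. It was at 73.9 CPM in Klf1-positive cells and 39.9 CPM in the others, a ratio of 1.85 (1.77 to 1.94), and so was the member that was well detected on both sides.

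The Rh complex is a set of membrane proteins linked to the skeleton. Rhag encodes the glycoprotein that Rh proteins need to reach the surface and that passes ammonia (chr17:40811126-40840754, plus strand). Its level was 146 against 2.003 CPM, a ratio of 72.8 (63.6 to 83.6). Rhd encodes the mouse Rh protein (chr4:134864536-134896172, plus strand), and was at 352 against 5.39 CPM, a ratio of 65.4 (60.2 to 71.1). Kel encodes the Kell protein, a surface endopeptidase that is bound to the XK protein (chr6:41686330-41704339, minus strand). It was at 49.7 against 1.47 CPM, and its ratio of 33.7 (28.7 to 39.8) was the lowest of the 7.

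Shares of cells with a UMI were compared after each cell had been thinned to 5000 UMIs, which left out 1 Klf1-positive cell. The comparison group, called the reference below, was 2327 neutrophil lineage-like and monocyte-like cells with 0 Klf1 UMIs, cells that should lack these transcripts, with a median of 21831 UMIs. A UMI of Rhd was found in 67.8% of thinned Klf1-positive cells and 1.68% of the reference. The shares were 43.7% and 0.388% for Rhag, 34.7% and 0.431% for Ank1, and 28.3% and 0.259% for Sptb. For Kel they were 20.4% and 0.172%, for Slc4a1 13.9% and 0.172%, and for Epb42 11.6% and 0.129%. Each of these 7 genes was thus rare in the reference, whereas Epb41 was found in 28.8% of Klf1-positive cells and still in 11.4% of the reference. Without thinning, a UMI was found in 85.7% of Klf1-positive cells for Rhd and, for Slc4a1, in 340 cells.

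Slc4a1 was also the member concentrated in the fewest cells. The 136 cells with the most Slc4a1 UMIs held 78.6% of them, and 1 cell held 42. The same number of cells held 50.6% of Epb42 UMIs and between 26.0% and 36.9% of the UMIs of each other member. No UMI of any member was found in 56 Klf1-positive cells (4.12%), and 208 cells (15.3%) held all 8. No UMI of the 7 members other than Epb41 was found in 111 cells, of which 107 lay in the earliest 2 of the 10 bins described next.

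To ask in which order the genes came on, Klf1-positive cells were ranked by an axis that used none of the members. The axis was the mean score of 12 late erythroid genes (globin and haem synthesis genes, Car1, Car2, Tfrc, Blvrb, Hemgn and Cldn13) minus that of 7 early genes, among them Cd34, Gata2, Meis1, Itga2b, Hlf and Mecom. The cells were divided into 10 bins of 136 cells. From the first to the last bin, Hba-a1 went from 59.4 to 5071 CPM and Klf1 from 145 to 401 CPM, while Gata2, a gene of early progenitors, went from 292 to 1.57 CPM. The axis is an order of cells by their transcripts and not a measured time. Cells in erythroid-like clusters made up 10.3% of the first bin, 51.5% of the second and 99.3% of the last. The median depth was 16363 UMIs in the first bin, 38273 in the fifth and 28078 in the last, and the bins held 19, 18, 15, 5, 8, 12, 9, 8, 1 and 1 doublet calls in order. Levels in the early bins are therefore also given without the doublet calls, or within erythroid-like clusters alone, for the results that turn on them.

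**Figure D1:**
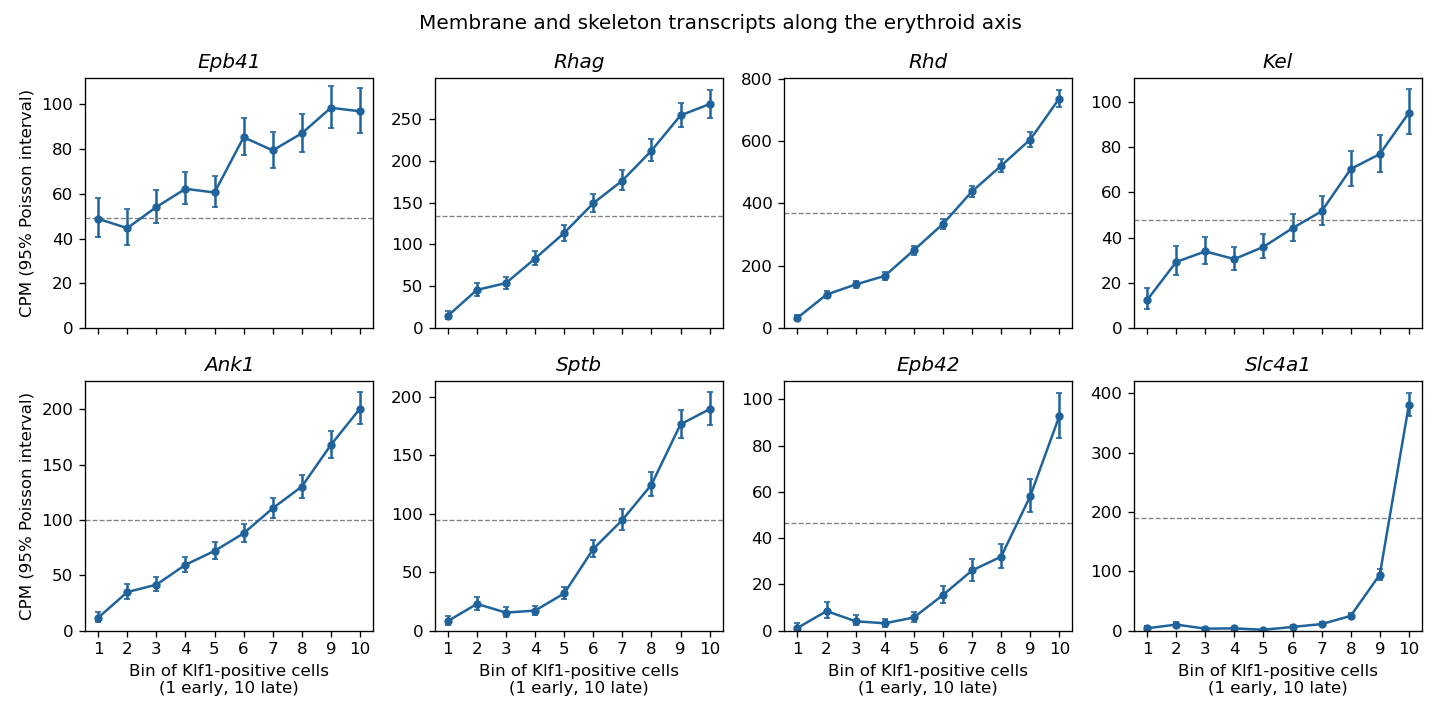
Level of each gene (vertical axes, CPM, linear, each panel with its own scale) in 10 bins of 136 Klf1-positive cells ordered along the erythroid axis (horizontal axes); points are summed UMIs over all UMIs of the bin, bars are exact 95% Poisson intervals and dashed lines mark 50% of the highest bin. Epb41 is above 40 CPM from the first bin, Rhag, Rhd, Kel and Ank1 climb through the middle bins, and Slc4a1 lies at 94.5 CPM in bin 9 and 381 CPM in bin 10.

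Slc4a1 reached its onset last and Epb42 next to last. Onset was taken as the percentile of Klf1-positive cells at which a gene first reached 50% of its highest bin, with a range in bins set by the counting intervals. Slc4a1 and Epb42 were still climbing in the last bin, so their percentiles depend on where the axis ends. Onset lay at 19.8 for Epb41 (bins 1 to 4), 50.7 for Rhag (bin 6), 58.3 for Rhd (bin 7) and 59.5 for Kel (bins 6 to 8). It lay at 60.5 for Ank1 (bin 7), 65.01 for Sptb (bins 7 to 8), 80.5 for Epb42 (bin 9) and 88.4 for Slc4a1 (bin 10). The value of Epb41 is no switching on, since its first bin, at 48.9 CPM, already stood near 50% of its highest, at 98.5 CPM. The ranges were apart in 21 of the 28 pairs of genes. These include every pair with Epb41, Epb42 or Slc4a1. Among Rhag, Rhd, Kel, Ank1 and Sptb, only Rhag with Rhd, with Ank1 and with Sptb had ranges apart. Among neighbours in the order of onset, Epb41 and Rhag, Rhag and Rhd, Sptb and Epb42, and Epb42 and Slc4a1 had ranges apart. Rhd, Kel, Ank1 and Sptb could not be placed in order beyond their counting ranges, nor could Kel against Rhag.

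**Figure D2:**
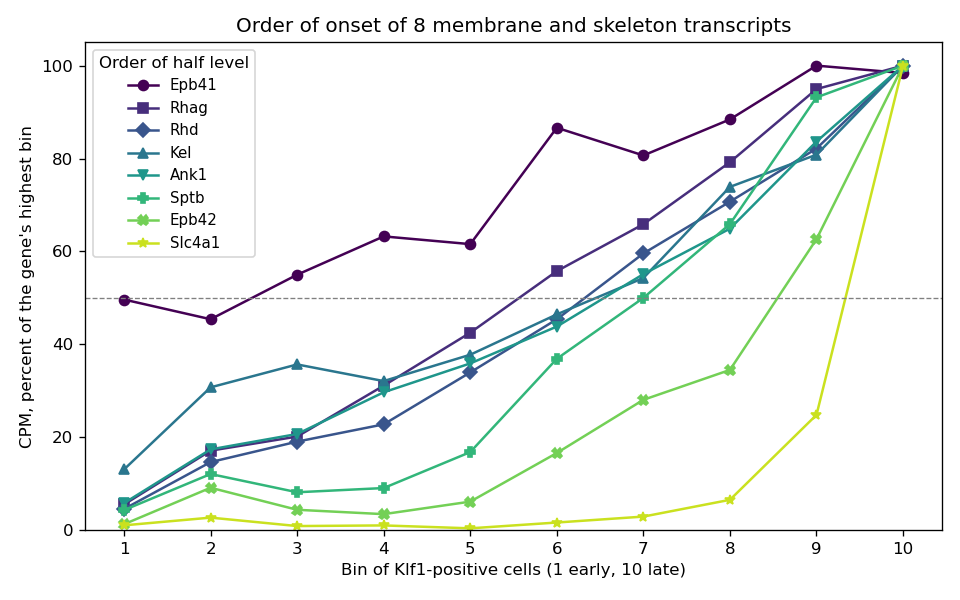
CPM of each gene as a percent of its own highest bin (vertical axis) in the 10 bins of Klf1-positive cells (horizontal axis), 1 line per gene in the order in which the genes reached 50% of the highest level (dashed line). The line of Epb41 starts near the dashed line, 5 lines cross it between bins 5 and 8, and those of Epb42 and Slc4a1 cross it between bins 8 and 10.

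The 3 genes of the ankyrin complex thus had different onsets. Ank1 was at 11.6 CPM in the first bin, 72.0 CPM in the fifth and 201 CPM in the last, a ratio of 17.2 (11.98 to 25.7). The first bin held few cells of erythroid-like clusters, and when those clusters alone were divided into bins the ratio was 3.92 (3.24 to 4.76), from 50.7 to 198 CPM. Epb42 was at 1.16, 8.45, 4.05, 3.18, 5.68, 15.4, 26.0, 32.0, 58.1 and 92.7 CPM in bins 1 to 10. Its level stayed below 10 CPM through the fifth bin and was higher in each bin after that. Slc4a1 was at 3.88, 10.2, 3.29, 3.81, 1.42, 6.19, 11.1, 24.8, 94.5 and 381 CPM. The last bin thus held 70.5% of its summed bin levels, against 21.9% for Ank1 and 37.6% for Epb42.

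The small counts of Slc4a1 in the earliest bins did not rise with the axis. There were 10 and 29 UMIs in bins 1 and 2, and 13, 18 and 7 in bins 3 to 5. With doublet calls removed and the cells divided anew, bins 1 and 2 held 4 and 12 UMIs, or 1.79 and 4.85 CPM, bin 3 held 22, or 5.81 CPM, and bin 10 was at 393 CPM. Within erythroid-like clusters alone, bin 1 held 44 UMIs, or 16.8 CPM, and bin 2 held 2. When the last bin was divided in 2 equal groups of cells, Slc4a1 was at 265 CPM (243 to 288) in the earlier and 510 CPM (477 to 544) in the later, so its level was still climbing at the end of the axis. Epb42 also climbed, from 76.4 CPM (64.8 to 89.5) to 110.7 CPM (96.0 to 127) in the same groups. Ank1 was at 202 and 198.9 CPM in these groups, and Rhag at 257 and 279 CPM, with overlapping intervals.

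Sptb, of the spectrin net, stayed between 8.15 and 22.9 CPM in bins 1 to 4 and was at 31.8 CPM in bin 5. It then reached 69.9, 94.8, 125, 177 and 189.65 CPM in bins 6 to 10. The last 2 bins had overlapping intervals. Epb41 was at 48.9 CPM in the first bin, 60.6 CPM in the fifth, 98.5 CPM in the ninth and 96.9 CPM in the last. Its ratio of last to first bin was 1.98 (1.62 to 2.45), while that of every other member was at least 7.66. At least 4-fold higher levels in the last than in the first bin were found for 7 of 8 members, against 3.61% of 8043 genes. Those genes had 50 or more UMIs in the 2 bins together. Of the 7 members, all but Rhd reached that number only through the last bin, where they are high, so the shares are not a like comparison. Within erythroid-like clusters alone this held for 5 of 8 members, against 2.01% of 7467 genes with as many UMIs. Slc4a1 and Epb42 had 44 and 24 UMIs in the first bin there. Slc4a1 then had a ratio of 24.8 (18.3 to 34.3), Epb42 10.8, Sptb 6.65, Rhd 5.22 and Rhag 4.76, while Ank1, Kel and Epb41 stayed under 4-fold.

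Both genes of the Rh complex climbed steadily. Rhag was at 14.7, 45.8, 53.9, 83.3, 114, 149, 176, 212, 254 and 268 CPM in bins 1 to 10. Rhd was at 33.4 CPM in the first bin, 249.9 CPM in the fifth and 736 CPM in the last. Each was higher in every bin than in the bin before. Over 20 bins the levels of Rhag and Rhd had a Pearson r of 0.996, a description of bins that share a library and an axis. Bin 9 stood at 254 of the highest 268 CPM for Rhag and at 605 of the highest 736 CPM for Rhd.

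Kel was at 12.4 CPM in the first bin, between 29.2 and 35.9 CPM in bins 2 to 5, and at 95.1 CPM in the last. Its ratio of last to first bin, 7.66 (5.33 to 11.4), was the lowest of the 7 genes. Within erythroid-like clusters alone the ratio was 2.35 (1.87 to 2.97), with bins 1 to 3 at 40.01, 34.3 and 29.5 CPM, so the difference between the first and second bins was not seen there. With onset set at 25% of the highest bin, over all Klf1-positive cells, Kel moved from 59.5 to 11.8, ahead of Rhag at 29.4.

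Levels above the reference cells were present from the first bin for every member but Epb42, whose interval first lay above that of the reference in bin 2. Of the 6 members with 50 or more UMIs in the first bin and the reference together, 6 lay above, against 34.2% of 11274 genes with as many UMIs, a count that leaves out Slc4a1 and Epb42. The calls of these 2 genes changed without the doublet calls: Slc4a1 was then at 1.79 CPM (0.488 to 4.59) in the first bin, overlapping the reference, and Epb42, at the same 4 UMIs, lay above its own. The first bin itself held Rhd at 33.4 CPM, while the reference was at 3.13 CPM. Slc4a1 was above the reference, at 0.480 CPM, in 9 of the 10 bins.

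Joint detection within cells was also counted, after thinning. Of 189 cells with Slc4a1, 181 also held Rhd, or 95.8%, while 19.7% of the cells with Rhd held Slc4a1. Rhd without Slc4a1 was found in 740 cells and Slc4a1 without Rhd in 8. Epb42 and Ank1 gave the same kind of imbalance with less contrast: 53.8% of cells with Epb42 held Ank1, and 18.0% of cells with Ank1 held Epb42. Some other pairs went the opposite way to their onsets. Thus 33.3% of cells with Slc4a1 held Epb42, while 39.9% of cells with Epb42 held Slc4a1. Both shares of a pair divide the same joint count, so which is larger is set by how many cells hold each gene. That number moves with each gene's abundance as well as with its onset, so these shares do not give the order. The number of the 8 genes found in a thinned cell had a median of 0 in the first bin, 2 in the fifth and 5 in the last.

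**Figure D3:**
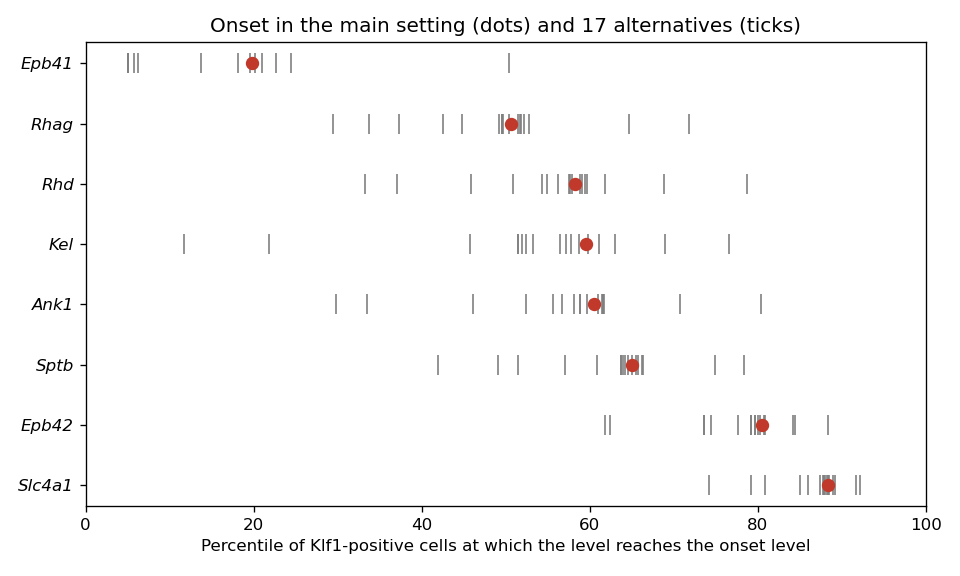
Percentile of Klf1-positive cells at onset (horizontal axis, 0 to 100) for each gene (vertical axis); dots are the main setting and ticks are 17 other settings of the threshold, cell filter, axis, bins and onset level. Slc4a1 is last in every setting drawn, at 74.2 to 92.1, and Epb42 next to last, while Rhag, Rhd, Kel and Ank1 spread over each other.

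Epb42 was next to last and Slc4a1 last in the main setting and in all 17 alternatives. Epb41 was first in each, a place set by its narrow range along the axis. Between 24 and 28 of the 28 pairs kept their order, and the lowest number came with Klf1 CPM itself as the axis, where onset lay at 33.7 for Rhag, 33.3 for Rhd and 21.8 for Kel.

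Levels of the 7 genes other than Epb41 were higher with each step in Klf1 UMIs from 0 to the group of 11 to 20, on both sides of the threshold. The 165 cells with 2 Klf1 UMIs, just inside it, had a median of 16049 UMIs, and the 580 cells with 1, just outside, a median of 16077. Rhd was at 4.24 CPM with 0 Klf1 UMIs, 16.95 CPM with 1, 68.7 CPM with 2 and 196 CPM with 3 to 5. With 2 Klf1 UMIs and with 1, Rhag was at 29.2 and 5.32 CPM. Ank1 was at 20.1 and 3.61 CPM, Kel at 16.7 and 4.11 CPM, and Sptb at 12.6 and 3.81 CPM. The values of Slc4a1, at 8.84 and 1.91 CPM, and Epb42, at 4.76 and 1.003 CPM, rested on 26 and 14 UMIs inside the threshold. Epb41, at 44.2 and 46.0 CPM, had overlapping intervals. In cells with 11 to 20 Klf1 UMIs, Rhd was at 458 CPM and Slc4a1 at 69.8 CPM.

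Outside Klf1-positive cells, Epb41 was the member with clear levels in many classes. Among cells with fewer than 2 Klf1 UMIs it was highest in HSC-like cells (96.4 CPM, 88.9 to 104.5) and megakaryocyte-like cells (86.5 CPM, 81.4 to 91.9), whose intervals overlapped. Both were close to the 98.5 CPM of its highest erythroid bin. The unnamed cluster led by St8sia6 and Apoe followed at 67.5 CPM (58.8 to 76.99). Multipotent progenitor-like cells were at 38.2 CPM, neutrophil lineage-like cells at 27.0 CPM and monocyte-like cells at 24.1 CPM. HSC-like cells had a median depth of 8125 UMIs and neutrophil lineage-like cells 21278.

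**Figure D4:**
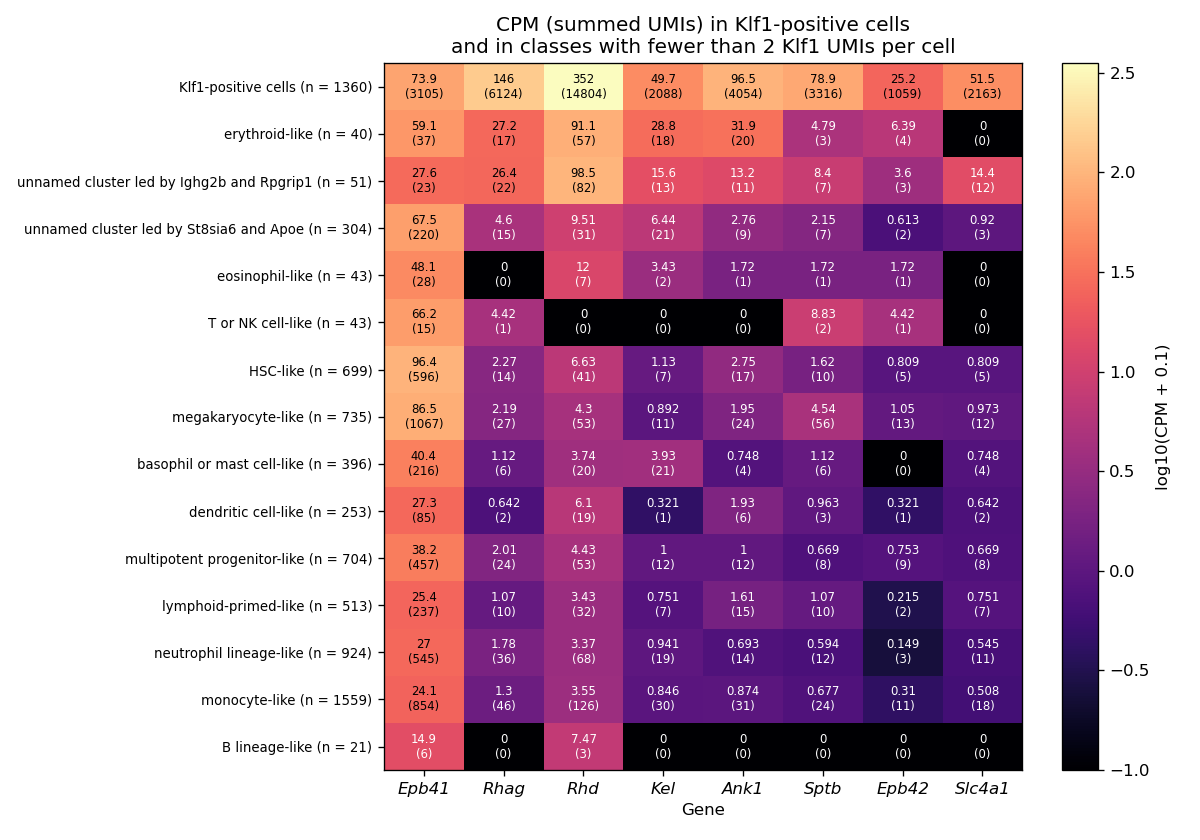
Level of each gene (columns) in Klf1-positive cells (top row) and in each class or unnamed cluster with fewer than 2 Klf1 UMIs per cell (other rows, n = cells); numbers are CPM with UMIs in parentheses and colours are log10(CPM + 0.1). The column of Epb41 is bright in most rows, up to 96.4 CPM in HSC-like cells, while the other columns stay below 15 CPM in every row other than Klf1-positive cells, erythroid-like cells and the cluster led by Ighg2b and Rpgrip1.

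The other 7 genes were at 12.01 CPM or less in every class and cluster but the erythroid-like cells and the cluster led by Ighg2b and Rpgrip1. Their UMIs in the reference numbered 381, together 7.31 CPM against 800.04 CPM in Klf1-positive cells, and were shared among the genes in proportions close to those of Klf1-positive cells. Rhd made up 42.8% of these UMIs in the reference and 44.0% in Klf1-positive cells, Rhag 18.1% and 18.2%, Slc4a1 6.56% and 6.44%, and Epb42 3.15% in both. Kel, at 11.02% and 6.21%, and Sptb, at 7.61% and 9.87%, differed more. Free RNA of broken cells can add a low count in all classes, which is a higher CPM where cells are shallower. Its part in these counts was not tested.

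The shares shifted toward Sptb in megakaryocyte-like cells and toward Kel in basophil or mast cell-like cells. In megakaryocyte-like cells Sptb had 56 UMIs, or 4.54 CPM (3.43 to 5.90), against 0.557 CPM in the reference, a ratio of 8.15 (5.12 to 13.2). It made up 28.6% of the UMIs of the 7 genes there, against 7.61% in the reference. Intervals of 4 of the 8 members (Ank1, Epb42, Sptb and Epb41) lay above the reference in megakaryocyte-like cells, which is no larger a share than the 57.4% of 11914 genes for which this held. A ratio of 4 or more was reached by 10.1% of these genes, and among the members with enough UMIs by Sptb. In basophil or mast cell-like cells Kel had 21 UMIs, or 3.93 CPM (2.43 to 6.00), against 0.806 CPM in the reference, and made up 34.4% of the UMIs of the 7 genes. Rhd was at 3.74 CPM (2.28 to 5.77) in the same cells and 3.13 CPM in the reference. In the unnamed cluster led by St8sia6 and Apoe, Kel was at 6.44 CPM (3.99 to 9.84) and Rhd at 9.51 CPM (6.46 to 13.5). HSC-like cells held Rhd at 6.63 CPM (4.76 to 9.001) and Ank1 at 2.75 CPM (1.60 to 4.40), both above the reference. Their median depth was 8125 UMIs, against 21831 in the reference, and the 7 genes together were at 16.0 against 7.31 CPM. Rhd made up 41.4% of these UMIs in HSC-like cells and 42.8% in the reference, and Ank1 17.2% and 10.8%. The part of depth or free RNA in these levels was not tested.

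The 40 erythroid-like cells with fewer than 2 Klf1 UMIs held Rhd at 91.1 CPM, Ank1 at 31.9 CPM and Kel at 28.8 CPM, and no UMI of Slc4a1, where 3 UMIs would have been 4.79 CPM. The 51 such cells of the cluster led by Ighg2b and Rpgrip1 held Rhd at 98.5 CPM and Slc4a1 at 14.4 CPM (7.45 to 25.2, 12 UMIs).

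Of 32 other genes of the membrane and its skeleton, 11 were at least 4-fold higher in Klf1-positive cells, against the 2.86% given above, and 2 were at least 4-fold lower, against 19.1% of all genes. Their median ratio was 2.28. In the ankyrin complex group, 4 of 5 genes were at least 4-fold higher. The water channel gene Aqp1 had a ratio of 16.0 and Car2, a carbonic anhydrase gene that also served on the axis, 11.7. Cd47, a surface signal against engulfment, was at 523 and 519 CPM, a ratio of 1.01 (0.991 to 1.02).

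Of the junctional complex, 3 of 13 genes were at least 4-fold higher and 1 was at least 4-fold lower. Dmtn, the gene of the actin-bundling protein dematin, had a ratio of 79.4 (57.5 to 113), Add2, encoding beta adducin, 57.3 and Xk, the partner of Kel, 4.48. The lowest 3 were Tmod3, Tpm3 and the glucose transporter gene Slc2a1, with ratios of 0.444, 0.339 and 0.137. Of 8 other surface genes, 3 were at least 4-fold higher, namely Ermap (60.1), Tspan33 (19.9) and Ackr1 (7.76), and Bcam was lower on 1 UMI in Klf1-positive cells. Of 5 channel, pump and transporter genes none reached 4-fold, from 0.515 for Atp2b1 to 3.88 for the nucleoside transporter gene Slc29a1.

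Paralogues that serve cells outside the red cell lineage had lower ratios. Of 13, 10 had enough UMIs, and of these 1 was at least 4-fold higher (Ank2, 5.04 on 52 and 27 UMIs) and 4 at least 4-fold lower, with a median ratio of 0.291. Sptbn1, the beta spectrin gene of most other cells, was at 14.8 CPM in Klf1-positive cells and 142 CPM in the others, a ratio of 0.105 (0.0963 to 0.113). Along the axis it went from 98.2 CPM in the first bin to 11.8 in the fifth and 0.262 in the last, on 1 UMI. Sptan1, the alpha spectrin gene of other cells, went from 37.2 to 2.43 and 0.262 CPM in the same bins. The erythroid Sptb was thus higher, and these general spectrin genes lower, in the last bin than in the first.

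**Figure D5:**
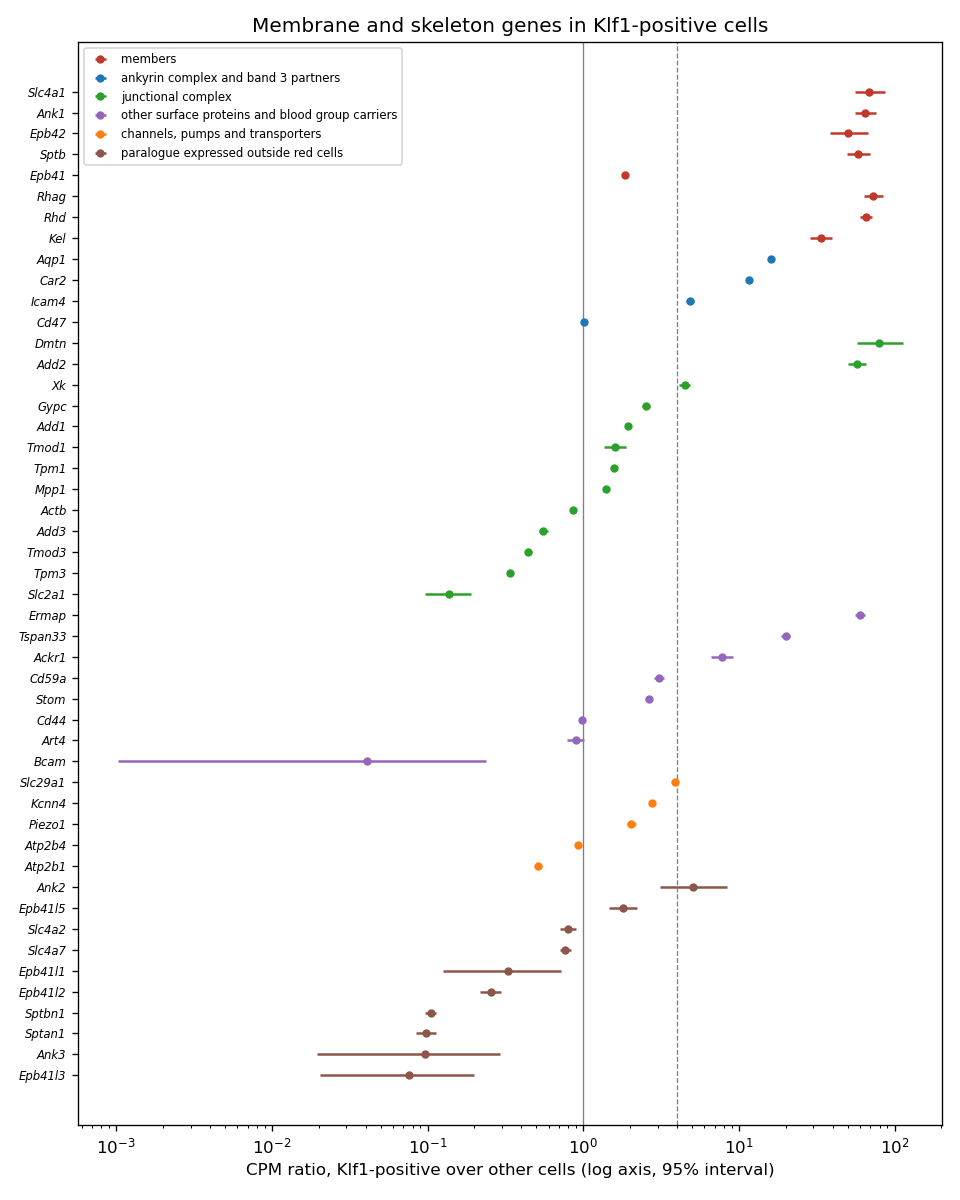
Ratio of CPM in Klf1-positive over other cells (horizontal axis, log scale; bars are exact 95% intervals, solid line at 1 and dashed line at 4) for the 8 genes and listed genes with 50 or more UMIs (vertical axis), coloured by group. The members other than Epb41 lie between 33.7 and 72.8 and Dmtn, Add2 and Ermap lie at 57.3 to 79.4, while Sptbn1 and Sptan1 lie near 0.1.

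The genes whose levels were most like each member over 20 bins were named by Pearson r of log2(CPM + 10), among 6786 genes with 500 or more UMIs in Klf1-positive cells and outside the axis. For Slc4a1 they were the mitochondrial iron importer gene Slc25a37 (0.985), Acp5 (0.977) and Smox (0.964). For Epb42 they were E2f2 (0.987), Ift140 and Mgst3, for Sptb Slc38a9 (0.988), Ctse and Carhsp1, and for Kel the stomatin gene Stom (0.975), Alad and Wapl. Those of Ank1, Rhag and Rhd were drawn from a shared set, with Cpox, of haem synthesis, among the nearest of each and Smim1, which carries the Vel blood group, near Rhag and Rhd. For Epb41 they were the replication gene Cdt1 (0.959), Ppp2r5b (0.953) and Ccna2 (0.953). Among the members themselves, r lay between 0.619 for Slc4a1 with Rhag and 0.996 for Rhag with Rhd. The bins share 1 library and 1 axis, along which many genes climb, so these values describe likeness alone.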

How the data were processed

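UMI counts deposited by the authors came from Cell Ranger 6.0.2 and mm10, for a 10x Chromium 3′ library per the study's methods, although the labels describe a bulk RNA kit. They are raw whole numbers. The study's cell filter (1000 to 50000 UMIs, 1000 to 6500 genes, mitochondrial share under 7%) kept 7645 of 8817 barcodes, with 151852381 UMIs and a depth of 1592 to 49991 UMIs per cell. No barcode was shared, as there is 1 library. Scrublet (scanpy 1.11.5, expected rate 6%) called 268 cells doublets (3.51%), which were kept in the main setting. Clusters were made with Seurat 5.3.0 and sctransform 0.4.2 in R 4.3.3 (3000 variable genes, mitochondrial share and S minus G2/M score regressed out, 50 components, Louvain resolution 0.8), leaving the members and the listed membrane genes out of the components. Of 17 clusters, 2 stayed unnamed, with 539 cells, and the others gave 12 classes, named by marker lists. Of 13 late axis genes 12 were counted.

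CPM carry Poisson, ratios conditional binomial and shares Clopper-Pearson intervals (scipy 1.17.1). Cells were thinned to 5000 UMIs, which left out 99. Ratio and onset steps were tested on simulated data. All members are named, with the 3 highest and lowest genes of the lists where they show the range, and the 3 genes most like each member. Members, lists and the cluster naming rule were chosen with earlier results of these data known. Alternatives covered thresholds, filters, doublets, axis, bins and clustering. GENCODE M21 (GRCm38) gave the coordinates, and the release behind the counts may differ. The results of some listed genes are not reported here, though the group counts include them.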

Additional observations from a re-analysis of the deposited data

How the results depend on the processing

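The count of members at least 4-fold higher in Klf1-positive cells was 7 under each alternative, also with at least 2-fold as the limit. The other listed genes at least 4-fold higher numbered 9 to 12. With 2 Klf1 UMIs required after thinning, which by construction moves cells with 2 or more unthinned Klf1 UMIs into the comparison group, the ratios of the 7 members other than Epb41 fell to between 6.47 (Kel) and 10.7 (Slc4a1). With no cell filter they lay between 14.3 (Kel) and 35.5 (Slc4a1); the cause was not tested. The values within erythroid-like clusters alone, and without doublet calls, of the first and last bins were added after seeing the data. Members whose interval lay above the reference in megakaryocyte-like cells numbered 4 in the main setting, 3 to 4 under 5 alternatives and 7 at a Louvain resolution of 0.4, where the class grew from 735 to 873 cells; the cause was not tested. Depth limits the rarest values: Epb42 had 3 UMIs in the first bin. No paired analysis was possible because there is 1 library and no test.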
